A study of Mus musculus with 6 samples.

Results

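The genes described here are 9 transcription factors of blood progenitors and Kit, the receptor tyrosine kinase that these progenitors carry. They are Runx1, Mecom, Gata2, Myb, Fli1, Lyl1, Meis1, Hhex, Etv6 and Kit, chosen by name, and the 10 genes had 11 of the 35557 probe sets in the deposited table and were among 14071 genes with a tested probe set of their own. Each gene has 1 probe set except Mecom, which has 2. Total RNA came from yolk sacs dissected from single mouse embryos at embryonic day 9.5 and was hybridised to Affymetrix Mouse Gene 1.0 ST arrays. The groups were 3 yolk sacs labelled Tnrc6a (GW182) mutant, described by the study as homozygous for a gene-trap allele (GW182gt/gt), and 3 yolk sacs of wild type littermates. Tnrc6a encodes GW182, which binds Argonaute and couples microRNAs to the silencing of their target mRNAs. Where the trap lies relative to the array's probes was not looked up here, and the genotype label of both groups also holds the word mixed without explanation.

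The yolk sac makes the first blood of the mouse embryo. A first wave forms primitive red cells in blood islands, and a second wave of progenitors buds from a specialised haemogenic endothelium in a step that needs Runx1. In blood progenitors Runx1, Gata2, Fli1 and Lyl1 bind shared regulatory sites together with Tal1, Lmo2 and Erg, and several of these factors, Fli1 and Erg among them, are also made by endothelial cells.

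Signals are log2 values as the authors deposited them. A probe set was tested if its mean over all arrays reached 4.29, which left 16387 probe sets. The brightest probe set of each of the 10 genes passed this filter, and the dimmer Mecom probe set did not. Array medians lay between 5.19 and 5.22. The visceral endoderm markers Afp and Ttr read 12.56 to 12.71 on every array. Of the genes that mark macrophages, 7 of 12 lay below the filter. Tnrc6a read 7.81, 5.33 and 5.20 in the libraries labelled mutant 1, 2 and 3, against 8.40, 7.62 and 8.29 in wild types 1 to 3. The Tnrc6a signal of the library labelled mutant 1, written labelled mutant 1 from here on, therefore does not match its label. Why the signal of this library differs from those of mutants 2 and 3, read by the same probe set, was not tested. The library is part of every comparison unless stated. The log2 difference of Tnrc6a was −1.99 (SE 0.65, limma adjusted p = 0.999), and −2.84 without that library (adjusted p = 0.108). Xist, which females express, read 9.63 or more in labelled mutant 1, mutant 3 and wild type 1 and 3.90 or less on the other arrays, and both kinds of array occurred in each genotype. In whole-tissue RNA a lower number of cells of one type and less RNA per cell cannot be told apart.

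None of the 10 genes passed the test between genotypes after adjustment over all probe sets. In limma's moderated test the Benjamini-Hochberg adjusted p was 0.999 for each of them, and 0 of 16387 probe sets (0.0%) had an adjusted p under 0.05, with 579 under 0.05 before adjustment. Before adjustment 3 of the 10, Mecom, Runx1 and Fli1, had a limma p under 0.05, each with a higher mean in the mutants. Over all tested probe sets 2.25% met that rule on the higher side and 3.53% on either side. In the same 3 genes all mutants lay above all wild types, which held for 5.17% of tested probe sets; 8.55% had groups apart in either direction. The mean was higher in the mutants for 9 of the 10, against 52.4% of all tested probe sets, and the median log2 difference of the 10 was 0.23, against 0.0063 over all tested probe sets. Mutant 3 was the highest array for 7 of the 10, against 25.6% of all tested probe sets. The median was 0.32, 0.27 and 0.076 without labelled mutant 1, mutant 2 and mutant 3. It was 0.17, 0.26 and 0.12 without wild types 1, 2 and 3. With 3 arrays against 3, an exact two-sided permutation test over the 20 ways to assign the labels cannot give a p below 0.1.

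**Figure D1:**
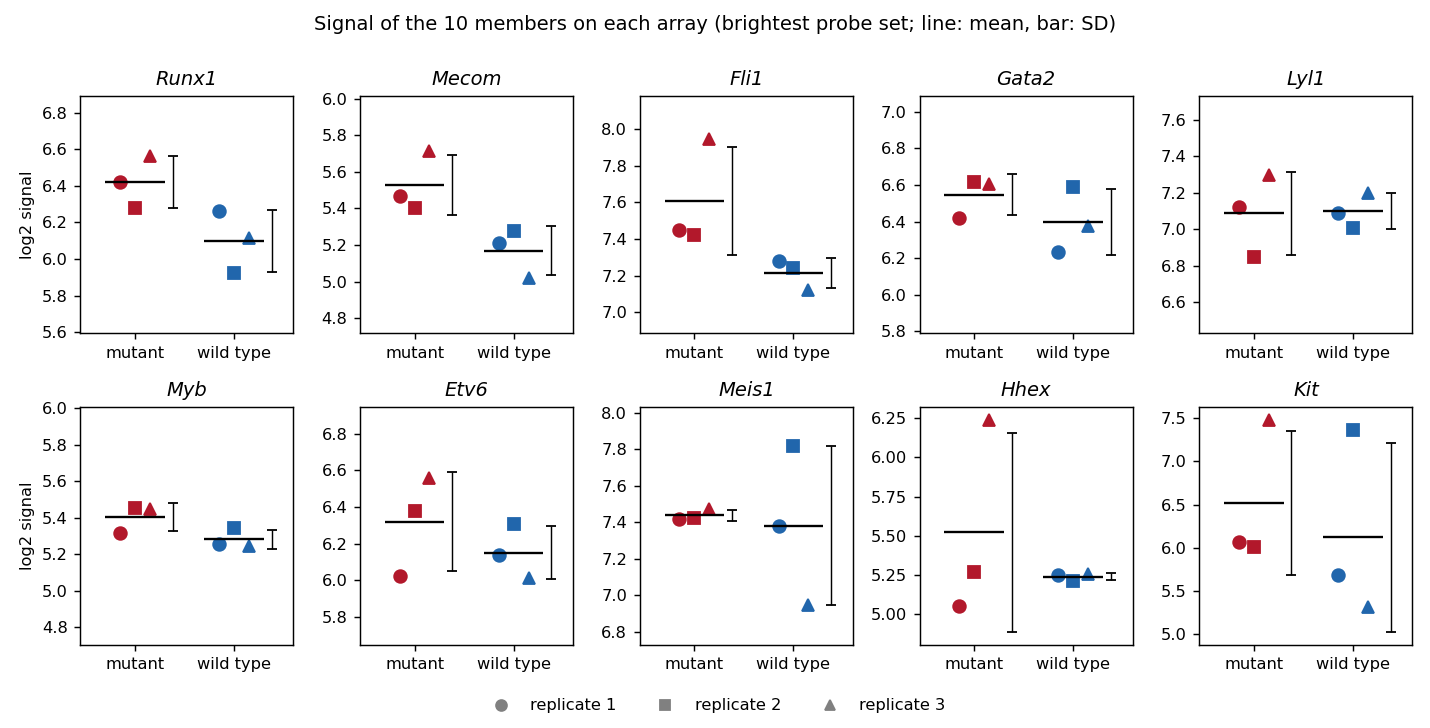
Log2 signal of the brightest probe set of each gene on the 6 arrays, mutants in red on the left and wild types in blue on the right of each panel. Markers are single arrays (circle, square and triangle for replicates 1, 2 and 3; the red circle is labelled mutant 1), lines are group means, bars are SD (n = 3), and the vertical scale differs between panels. Groups are apart for Runx1, Mecom and Fli1, while Hhex is high in mutant 3 and Kit in mutant 3 and wild type 2.

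Runx1 is the runt-domain factor that endothelial cells need to give rise to blood progenitors. It read 6.42, 6.28 and 6.57 in labelled mutant 1, mutant 2 and mutant 3, against 6.26, 5.92 and 6.12 in wild types 1, 2 and 3. The groups did not overlap, but the lowest mutant lay just 0.018 above the highest wild type. The mean was 6.42 ± 0.14 in the mutants and 6.10 ± 0.17 in wild type (SD, n = 3 each), a 1.25-fold higher level in the mutants. The log2 difference was 0.32 (SE 0.12, 95% interval 0.049 to 0.60; limma p = 0.0267 before and 0.999 after adjustment), and the exact permutation p was 0.1, the smallest possible. The limma p before adjustment came to 0.0587 when labelled mutant 1 was left out, 0.0791 for mutant 3, 0.0901 for wild type 2 and 0.0568 for wild type 3.

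Runx1 has a distal and a proximal start in RefSeq, 128745 bases apart, and its single probe set gives 1 value for both. Their upstream windows are shown because they differ in base composition. They are the 250 bases before each start on the minus strand of GRCm38.p6, chr16:92826075-92826324 for the distal and chr16:92697330-92697579 for the proximal start. The distal window holds 2 CG dinucleotides and 45.6% G or C, the proximal one 27 and 67.6%.
Runx1 distal: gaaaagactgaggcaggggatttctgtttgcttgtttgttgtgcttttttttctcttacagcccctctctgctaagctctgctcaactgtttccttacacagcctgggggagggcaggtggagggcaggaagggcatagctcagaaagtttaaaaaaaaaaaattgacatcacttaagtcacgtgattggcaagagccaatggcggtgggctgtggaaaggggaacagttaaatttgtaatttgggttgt
Runx1 proximal: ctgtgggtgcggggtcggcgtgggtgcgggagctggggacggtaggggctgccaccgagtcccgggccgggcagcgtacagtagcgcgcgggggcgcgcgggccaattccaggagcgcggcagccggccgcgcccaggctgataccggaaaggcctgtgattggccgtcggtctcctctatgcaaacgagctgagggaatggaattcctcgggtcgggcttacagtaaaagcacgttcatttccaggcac

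Fli1 is an ETS factor of endothelium, megakaryocytes and blood progenitors. It read 7.45, 7.42 and 7.95 in labelled mutant 1, mutant 2 and mutant 3, against 7.28, 7.24 and 7.12 in wild types 1, 2 and 3. All mutants were above all wild types by at least 0.14, and mutant 3 was well above the other mutants. Means were 7.61 ± 0.30 in the mutants and 7.21 ± 0.084 in wild type (SD, n = 3 each), a 1.31-fold higher level in the mutants. The log2 difference was 0.39 (SE 0.15, 95% interval 0.048 to 0.74; limma p = 0.0307 before and 0.999 after adjustment), with an exact permutation p of 0.1. Without mutant 3 it was 0.22, and without labelled mutant 1 it was 0.47. The limma p before adjustment came to 0.0509, 0.0555 and 0.0933 when wild type 1, 2 or 3 was left out.

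Gata2 is a zinc finger factor that keeps blood progenitors alive and dividing. It read 6.42, 6.62 and 6.60 in labelled mutant 1, mutant 2 and mutant 3, against 6.23, 6.59 and 6.37 in wild types 1, 2 and 3. Wild type 2 lay inside the range of the mutants. Gata2 differed by 0.15 on the log2 scale (SE 0.11, 95% interval −0.12 to 0.41), by 0.066 without wild type 1 and by 0.24 without wild type 2.

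Lyl1 is a basic helix-loop-helix factor closely related to Tal1. It read 7.12, 6.85 and 7.30 in labelled mutant 1, mutant 2 and mutant 3, against 7.09, 7.01 and 7.20 in wild types 1, 2 and 3. Mutant 2 was the lowest array and mutant 3 the highest, so the mutants spanned the wild types on both sides. The log2 difference was −0.011 (SE 0.13, 95% interval −0.30 to 0.28), the only negative one among the 10 genes. It was 0.11 without mutant 2 and 0.040 without wild type 3.

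Mutant 2 was also the library with the lowest primitive erythroid signal. All 10 tested markers of primitive red cells were lowest in it, and their mean stood at −0.77 there relative to the wild-type mean. The same mean was −0.094 in labelled mutant 1 and −0.13 in mutant 3, against −0.042 to 0.029 in the wild types. The part of these cells in the Lyl1 value was not tested. Of the 22 partner and related factors 21 were measured, and mutant 2 was the lowest array for 9 of them. The share of all tested probe sets that were lowest in mutant 2 was not computed, for these factors or for the red cell markers. Tal1, the close relative of Lyl1, read 7.56, 6.92 and 7.76 in labelled mutant 1, mutant 2 and mutant 3, against 7.56, 7.39 and 7.70 in wild types 1 to 3. Tal1 is named for that relation, after its values had been seen.

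The window before the Lyl1 start is shown because it is 1 of the 3 windows of these genes with CGGAAG, the letters searched for ETS factors. It is chr8:84701207-84701456 on the plus strand of GRCm38.p6. Capitals mark the ETS letters, read from the opposite strand, at position −182 relative to the start.
Lyl1: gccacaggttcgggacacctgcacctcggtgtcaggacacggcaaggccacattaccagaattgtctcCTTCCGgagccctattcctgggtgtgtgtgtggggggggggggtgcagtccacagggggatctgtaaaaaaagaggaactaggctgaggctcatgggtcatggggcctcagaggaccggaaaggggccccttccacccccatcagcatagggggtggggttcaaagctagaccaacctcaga

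Mecom encodes the zinc finger factor Evi1 and, from an earlier start, a longer protein with an added domain, and it is needed to maintain blood stem cells. Its brighter probe set read 5.47, 5.40 and 5.71 in labelled mutant 1, mutant 2 and mutant 3, against 5.21, 5.28 and 5.02 in wild types 1, 2 and 3. The mutants were above the wild types by at least 0.12, with mutant 3 highest and wild type 3 lowest. Means were 5.53 ± 0.17 in the mutants and 5.17 ± 0.13 in wild type (SD, n = 3 each), a 1.28-fold higher level in the mutants. The log2 difference was 0.36 (SE 0.11, 95% interval 0.092 to 0.62; limma p = 0.0149 before and 0.999 after adjustment), with an exact permutation p of 0.1. The limma p before adjustment came to 0.0556 when wild type 3 was left out.

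The dimmer Mecom probe set went the other way. It read 3.93, 3.85 and 3.88 in labelled mutant 1, mutant 2 and mutant 3, against 3.87, 3.98 and 4.00 in wild types 1, 2 and 3. The groups overlapped, the values lay below the filter, and the log2 difference was −0.065 (SE 0.082) in a fit without the filter. In the array annotation the probe sets list 7 and 3 transcripts and share 1 of them. The mean of both probe sets gave a log2 difference of 0.15 for the gene, with an unadjusted limma p of 0.121.

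The 2 Mecom starts of RefSeq lie 496555 bases apart, and their windows are shown because the probe sets differ. They are chr3:30509760-30510009 before the earlier and chr3:30013205-30013454 before the later start, both on the minus strand of GRCm38.p6. Which probe set reads which start was not determined. Capitals mark an E-box at −57 from the earlier start and an ETS sequence at −43 from the later one.
Mecom earlier start: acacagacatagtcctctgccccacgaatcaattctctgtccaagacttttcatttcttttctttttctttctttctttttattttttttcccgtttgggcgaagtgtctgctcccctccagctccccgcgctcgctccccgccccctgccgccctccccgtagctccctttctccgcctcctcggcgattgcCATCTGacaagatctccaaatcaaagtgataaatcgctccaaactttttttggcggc
Mecom later start: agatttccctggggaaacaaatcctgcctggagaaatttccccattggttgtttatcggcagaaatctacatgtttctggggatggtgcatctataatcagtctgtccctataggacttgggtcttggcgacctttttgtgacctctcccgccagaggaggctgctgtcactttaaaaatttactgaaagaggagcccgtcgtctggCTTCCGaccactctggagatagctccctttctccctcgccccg

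The RefSeq windows used here covered 13 starts of 9 of the 10 genes, all but Fli1. The letters searched on both strands were AGATAA for GATA factors, CGGAAG for ETS factors, TGTGGT for Runx factors and CAGATG for the E-box of Tal1 and Lyl1. No matches in these 13 windows overlapped each other. Other forms of these sites were not searched, so the counts are of these exact letters. The GATA letters were in 0 of the 13 windows, against 9.99% of the 32851 windows of all genes. The ETS letters were in 3, those of Mecom, Lyl1 and Meis1, against 13.6%. The Runx letters were in 1, that of Meis1, against 14.0%, and the E-box letters in 1, that of Mecom, against 14.4%. The 2 Kit windows start 4 bases apart and are nearly the same sequence.

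Meis1 and Hhex are homeodomain factors. Meis1 is a partner of Hox and Pbx proteins in blood progenitors, and read 7.42, 7.42 and 7.47 in labelled mutant 1, mutant 2 and mutant 3, against 7.38, 7.82 and 6.95 in wild types 1, 2 and 3. The mutants were nearly level, at an SD of 0.030, and the wild types were spread on both sides of them, at an SD of 0.43. Between genotypes Meis1 differed by 0.056 on the log2 scale (SE 0.20, 95% interval −0.40 to 0.52), and the difference was 0.27 without wild type 2 and −0.16 without wild type 3.

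Hhex acts in endoderm and in the common precursors of blood and endothelium. It read 5.05, 5.27 and 6.24 in labelled mutant 1, mutant 2 and mutant 3, against 5.25, 5.21 and 5.26 in wild types 1, 2 and 3. Mutant 3 alone was high, and the wild types were within 0.042 of each other. The log2 difference of 0.28 (SE 0.28, 95% interval −0.37 to 0.93) was −0.079 without mutant 3 and 0.52 without labelled mutant 1. The visceral endoderm list was lowest in mutant 3, at −0.12, and the endothelium list highest there, at 0.44; their part in the Hhex value was not tested.

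Myb is needed for the second wave of blood but not for primitive red cells. It read 5.32, 5.45 and 5.45 in labelled mutant 1, mutant 2 and mutant 3, against 5.26, 5.34 and 5.25 in wild types 1, 2 and 3. The overlap came from 1 array on each side, labelled mutant 1 and wild type 2. Myb differed by 0.12 on the log2 scale (SE 0.080, 95% interval −0.064 to 0.31).

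Etv6 is an ETS repressor that mouse yolk sac vessels need to stay intact. It read 6.02, 6.38 and 6.56 in labelled mutant 1, mutant 2 and mutant 3, against 6.14, 6.30 and 6.01 in wild types 1, 2 and 3. Mutants 2 and 3 were above every wild type, and labelled mutant 1 was within their range. Etv6 differed by 0.17 on the log2 scale (SE 0.15, 95% interval −0.18 to 0.52), and the difference was 0.32 without that library and 0.051 without mutant 3.

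Kit binds stem cell factor and marks the progenitors of the second wave, and is also made by other cells. It read 6.06, 6.01 and 7.48 in labelled mutant 1, mutant 2 and mutant 3, against 5.69, 7.36 and 5.31 in wild types 1, 2 and 3. Mutant 3 and wild type 2 were both far above the other 4 arrays, so Kit split the arrays across genotypes and had the widest spread of the 10 genes. Its means were 6.52 ± 0.84 in the mutants and 6.12 ± 1.09 in wild type (SD, n = 3 each). The log2 difference of 0.40 had the broadest interval of the 10, from −0.97 to 1.76 (SE 0.58). It was −0.085 without mutant 3, −0.0071 without wild type 3 and 1.02 without wild type 2.

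**Figure D2:**
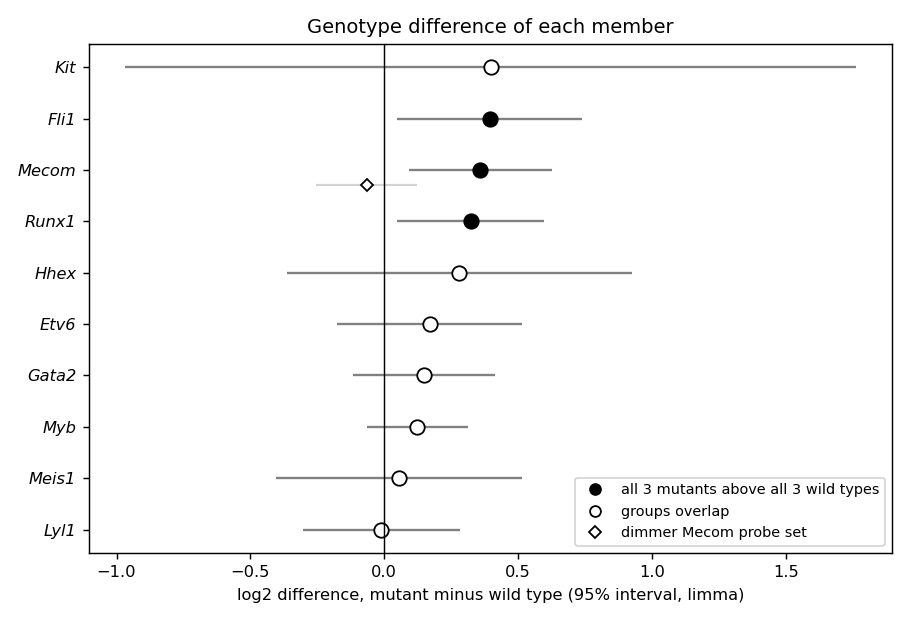
Log2 difference, mutant minus wild type, of each gene over 3 mutant and 3 wild-type arrays (points) with limma's 95% interval (lines). Filled points mark Runx1, Mecom and Fli1, where all mutants were above all wild types; the diamond is the dimmer Mecom probe set, at −0.065, and the interval of Kit is the widest.

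The arrays with high Kit were unlike in the trophoblast, decidua and parietal endoderm list, and were the highest for the mesenchyme and mesothelium list. Wild type 2 was highest for the trophoblast, decidua and parietal endoderm list, 1.24 over the average of the wild types, and for the mesenchyme and mesothelium list, at 0.47. In mutant 3, where Kit was as high, these lists stood at −0.18 and 0.23, and the mesenchyme list was at 0.19 in mutant 2. Within the mesenchyme list Tagln read 8.59 in mutant 3 and 8.44 in wild type 2, against 7.01 or less on the other arrays. Acta2 was also highest on these arrays, whereas Col1a1 and Col1a2 were lowest in mutant 3. Of the trophoblast list 4 of 8 tested markers were higher and 4 lower in the mutants, and the list ran from −0.82 to 0.46 in the mutants and from −0.66 to 1.24 in the wild types. The part of these tissues in the Kit values was not tested. The mast cell genes Cpa3, Mcpt4, Fcer1a and Ms4a2 were below the filter, and are named after their values had been seen. Tpsb2, also a mast cell gene, passed the filter by its mean over all arrays, but lay close to it. It read 4.16 in mutant 3 and 4.25 in wild type 2, against 4.36 to 4.47 on the other arrays. The values in mutant 3 and wild type 2 were themselves below the filter level, so this difference lies near the floor. The part of mast cells in the Kit values was not tested.

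**Figure D3:**
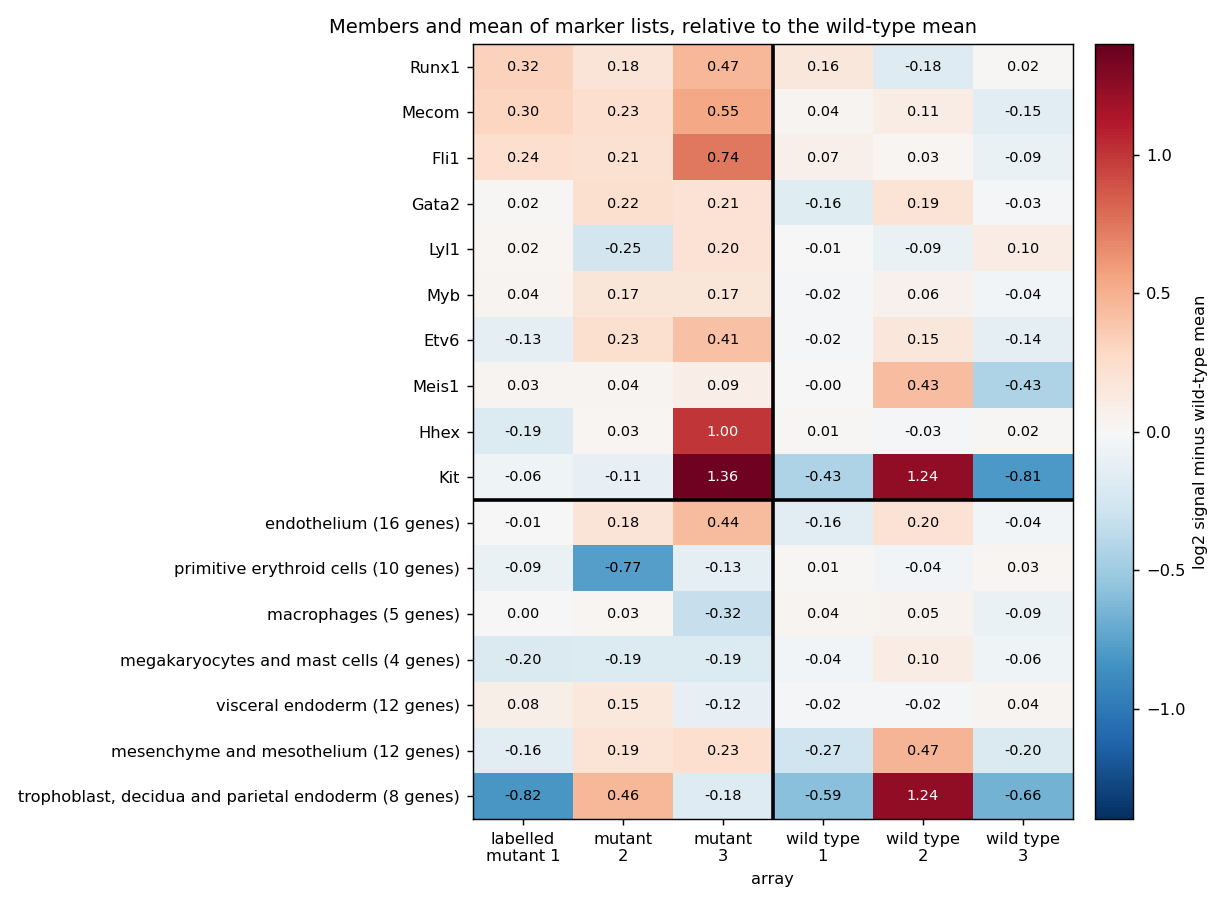
Log2 signal of each gene (upper rows) and mean of each marker list (lower rows) on each array, minus the wild-type mean, with mutants on the left and wild types on the right. Kit is red in mutant 3 (1.36) and wild type 2 (1.24), mutant 2 is blue in the primitive erythroid list (−0.77), and mutant 3 is highest for the endothelium list (0.44).

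Endothelial markers were mostly higher in the mutants, none of them past adjustment. Of 16 markers 15 had a higher mean in the mutants, 3 of them, Tie1, Kdr and Tek, with an unadjusted limma p under 0.05 and no overlap of the groups, and 0 passed adjustment. Over all tested probe sets 52.4% had a higher mean, 2.25% were higher at that p and 5.17% had all mutants above all wild types. The median log2 difference of the list was 0.21, and 0.10 without mutant 3. Tie1, Kdr and Tek are receptors of endothelial cells, and their log2 differences were 0.28 (SE 0.089), 0.40 (SE 0.13) and 0.29 (SE 0.10). The list stood at −0.0051, 0.18 and 0.44 in labelled mutant 1, mutant 2 and mutant 3, against −0.16, 0.20 and −0.043 in wild types 1, 2 and 3, so the groups overlapped. Runx1, Mecom and Fli1 stood at 0.32, 0.30 and 0.24 in labelled mutant 1, where the endothelium list was at −0.0051. In wild type 2, where that list was at 0.20, they stood at −0.18, 0.11 and 0.028. In mutant 3, where the list was highest at 0.44, the 3 genes were also highest, at 0.47, 0.55 and 0.74. Runx1, Mecom and Fli1 were taken here as the genes with groups apart. That alone sets them higher in labelled mutant 1 than in wild type 2. Tie1, Kdr and Tek, whose groups were also apart, were likewise higher in labelled mutant 1 than in wild type 2. The part of endothelial cells in the values of Runx1, Mecom and Fli1 was not tested.

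Among partner and related factors 12 of 21 had a higher and 9 a lower mean in the mutants, with a median log2 difference of 0.044, against 0.0063 over all tested probe sets. That median was 0.13 without mutant 2, 0.084 without wild type 3, 0.0065 without mutant 3, 0.0043 without wild type 2 and −0.039 with the filter at the 50th percentile. At an unadjusted limma p under 0.05 there were 2, Erg and Hoxa7, both higher, against 2.25% of all tested probe sets, and 0 passed adjustment. Erg, the ETS factor most like Fli1, read 6.88, 6.96 and 7.30 in labelled mutant 1, mutant 2 and mutant 3, against 6.80, 6.53 and 6.66 in wild types 1, 2 and 3. All mutants were above all wild types, as for Fli1, and the log2 difference was 0.38 (SE 0.13). Erg was the 1 partner of 21 whose groups did not overlap, against 5.17% of all tested probe sets with all mutants above. Hoxa7, a homeobox gene, differed by 0.23 (SE 0.098) with overlap, and Nfe2, a factor of red cells and megakaryocytes, by −0.31 (SE 0.18). Lmo2, a bridge between Tal1 or Lyl1 and Gata factors, differed by 0.099 (SE 0.16), and Cbfb, the subunit that Runx1 needs to bind DNA firmly, by 0.13 (SE 0.092). Both are named for these roles, after their values had been seen.

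**Figure D4:**
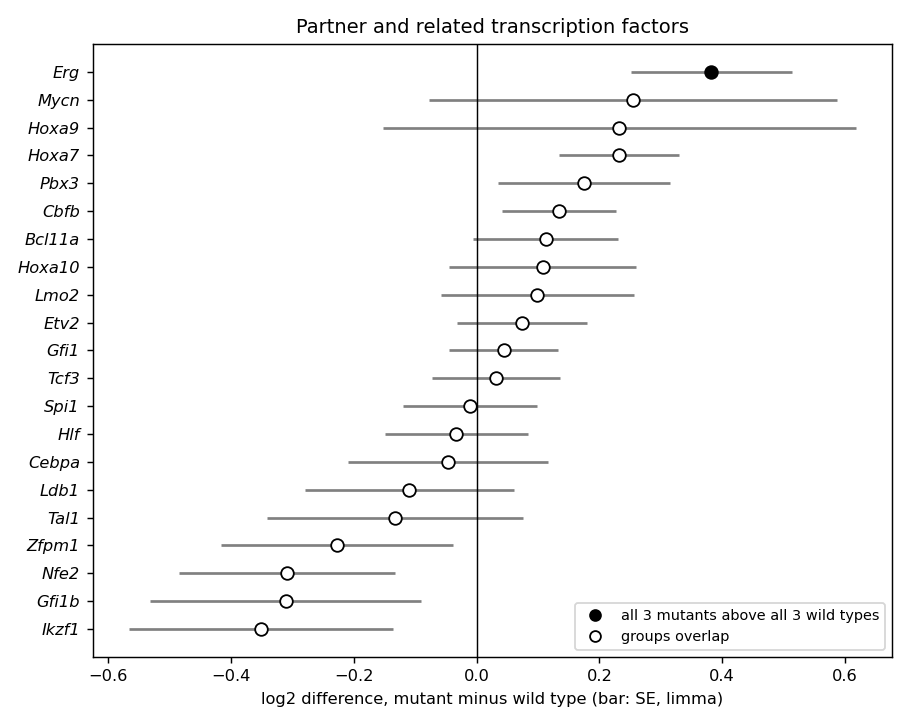
Log2 difference, mutant minus wild type, of 21 partner and related transcription factors over 3 mutant and 3 wild-type arrays, with limma's SE as bars. Erg, at 0.38, is filled as the 1 factor with all mutants above all wild types, and Ikzf1, Gfi1b and Nfe2 lie at the low end, at −0.35, −0.31 and −0.31.

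The ligand of Kit and the surface proteins of progenitors were mixed. Of 20 genes on this list 19 were measured and 15 passed the filter, 10 with a higher and 5 with a lower mean in the mutants and a median log2 difference of 0.074. That median was 0.022 without wild type 1, 0.031 without mutant 3, 0.15 without wild type 2 and 0.048 with no filter. Kitl, the ligand, read 6.90, 7.08 and 6.96 in labelled mutant 1, mutant 2 and mutant 3, against 6.64, 6.88 and 6.76 in wild types 1, 2 and 3. The groups were narrowly apart, and the log2 difference was 0.22 (SE 0.094, limma adjusted p = 0.999). Kitl was highest in mutant 2, where Kit read 6.01. Cd93, a receptor of endothelium and early progenitors, differed by 0.31 (SE 0.15), and Vav1, a signalling protein of blood cells, by 0.18 (SE 0.093). Kitl and Vav1 were the 2 of 15 with all mutants above all wild types, against 5.17% of all tested probe sets. Epor was the 1 with all mutants below, against 3.38%, and differed by −0.39 (SE 0.20). It is named after its values had been seen.

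Leaving out 1 array changed the counts. Without labelled mutant 1, 7 of the 10 genes had both remaining mutants above all wild types, against 10.1% of tested probe sets, and without wild type 2 the count was also 7, against 12.5%. With 5 arrays the groups come apart more readily than with 6. Without any other single array the count was 3. The number of genes with an unadjusted limma p under 0.05 and a higher mean was 3 without labelled mutant 1 or mutant 2, 2 without mutant 3 or wild type 1, 1 without wild type 2 and 0 without wild type 3. Of the 16387 probe sets 456 met that rule without labelled mutant 1, 234 without mutant 2, 623 without mutant 3, and 217, 578 and 277 without wild types 1, 2 and 3. The 3 genes were not always the same: without labelled mutant 1 they were Mecom, Fli1 and Etv6, the last at a limma p of 0.0375, and Runx1 was not among them. The mean was higher in the mutants for 7 to 10 of the 10 genes when 1 array was left out.

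**Figure D5:**
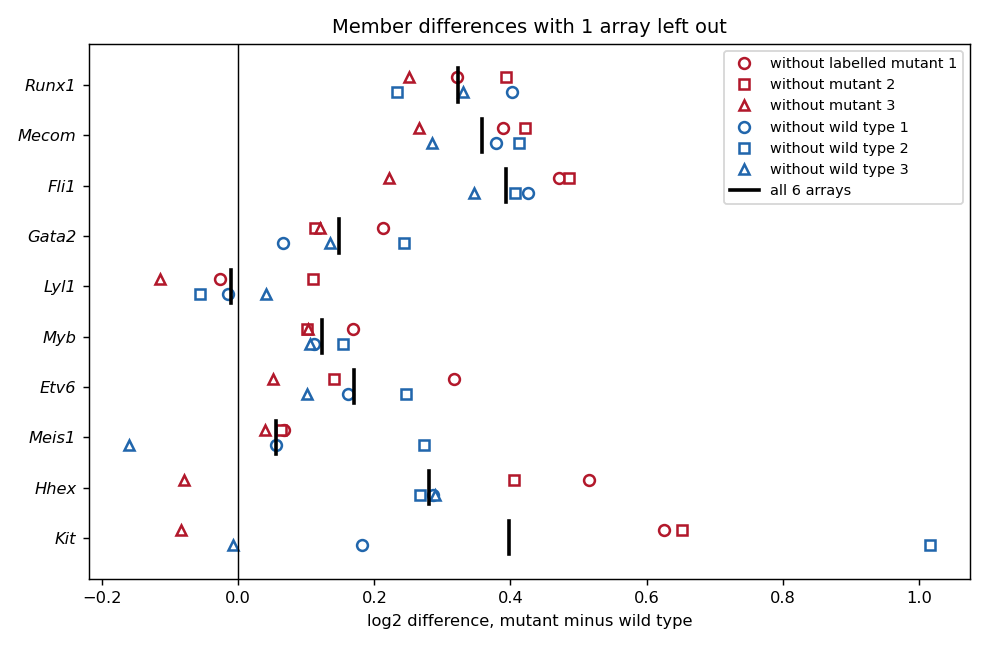
Log2 difference, mutant minus wild type, of each gene with all 6 arrays (black bars) and with 1 array left out (red markers, a mutant left out; blue markers, a wild type left out). Runx1, Mecom and Fli1 stay between 0.22 and 0.49, while Lyl1, Meis1, Hhex and Kit lie on both sides of 0.

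MicroRNAs that other studies have tied to these genes are shown because Tnrc6a acts through microRNAs. Kit is a reported target of miR-221 and miR-222 in human blood progenitors, Runx1 of miR-27a and Myb of miR-15a in human cells, and Myb of miR-150 in mouse lymphocytes. Capitals mark the seed, bases 2 to 8, in the mature sequences of RefSeq on GRCm38.p6.
mmu-miR-221-3p: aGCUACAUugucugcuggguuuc
mmu-miR-222-3p: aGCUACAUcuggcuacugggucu
mmu-miR-27a-3p: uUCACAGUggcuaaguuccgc
mmu-miR-15a-5p: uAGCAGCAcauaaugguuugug

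The first 2 share the seed GCUACAU and the other 2 have seeds of their own. The array reads their primary genes, not the mature forms. Mir221 read 2.89 to 3.02 in the mutants and 3.04 to 3.23 in wild type, and Mir222 read 3.38 to 3.55 in the mutants and 3.30 to 3.41 in wild type, all below the filter. Mir221 was lower in every mutant than in every wild type, and Mir222 overlapped. All mutants lay below all wild types for 3.38% of tested probe sets, but no share was computed for probe sets below the filter. In a fit without the filter Mir221 differed by −0.20 (SE 0.090) and Mir222 by 0.10 (SE 0.086). Mir27a differed by −0.078 (SE 0.11) and Mir150 by −0.048 (SE 0.11), with overlapping groups. Mir15a read 5.80 to 5.84 in the mutants and 5.63 to 5.74 in wild type, a log2 difference of 0.12 (SE 0.075; limma adjusted p = 0.999). The Mir15a groups did not overlap, with all mutants above all wild types, which held for 5.17% of tested probe sets. Mature microRNAs were not measured.

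Of the lists for other cells, primitive red cells had 10 of 10 tested markers with a lower mean in the mutants, 2 of them at an unadjusted limma p under 0.05 and 0 past adjustment, at a median of −0.31, which was −0.10 without mutant 2. Hbb-y, an embryonic globin, differed by −0.25 (SE 0.092), Alas2, the haem synthesis enzyme of red cells, by −0.53 (SE 0.21) and Rhag, a red cell membrane protein, by −0.54 (SE 0.25). Over all tested probe sets 1.28% were lower at that level, and 52.4% had a higher mean in the mutants. For 5 of the 10 red cell markers all mutants lay below all wild types, against 3.38% of all tested probe sets. Of 9 measured megakaryocyte and mast cell genes 4 passed the filter, and these 4 were lower. Pf4, a platelet chemokine, differed by −0.57 (SE 0.21), with all mutants below all wild types. Tpsb2 differed by −0.096 (SE 0.10) and Gp9 by −0.074 (SE 0.079), both with overlap. Of 5 tested macrophage genes 4 were lower, with Cd68 at −0.25 (SE 0.21), Tyrobp at −0.072 (SE 0.080) and Cx3cr1 at −0.058 (SE 0.083). Visceral endoderm genes were higher in 8 of 12, with Apob at 0.15, Apoa4 at 0.13 and Rbp4 at 0.061. Mesenchyme genes were also higher in 8 of 12, with Wt1 at −0.21, Foxf1 at 0.24 and Hand1 at 0.23. Prl4a1 at −1.11 (SE 0.76), Lama1 at −0.64 (SE 0.74) and Slc38a4 at 0.29 (SE 0.36) led the trophoblast list by p. The part of any of these cells in the values of the 10 genes was not tested.

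The genes most like Runx1 and Kit over the 6 arrays were taken from 14070 other tested genes, as a description of 6 points that hold both genotypes. The most like Runx1 were 4933430I17Rik (Pearson r = 0.985), Myom1 (r = 0.983) and the primary microRNA gene Mirlet7i (r = 0.982), each with a Spearman rho of 1. In all, 19 genes correlated with Runx1 above 0.95. The most like Kit were Hs6st2 (r = 0.997, rho = 0.943), Ktn1 (r = 0.995, rho = 1) and Tuba1a (r = 0.995, rho = 0.943), and 90 genes correlated with Kit above 0.95. Hs6st2 read 6.20 in mutant 3 and 6.17 in wild type 2, against at most 5.46 on the other arrays.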

How the data were processed

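Total RNA of 3 mutant and 3 wild-type yolk sacs was analysed, grouped by sample title. The deposited table holds the authors' log2 signals of 35557 probe sets; MAS5 is the only tool in the submitters' processing notes, and which background step, probe summary or normalization was applied is unknown here. The log2 scale was read from the values (0.66 to 13.7). Values were used as deposited. Names came from the GEO annotation of the platform, with 21797 probe sets having 1 symbol, 1613 several and 12147 none. Those with a symbol and a mean at or above the 30th percentile (4.29) were tested with limma 3.58.1 in R 4.3.3, mutant minus wild type, with Benjamini-Hochberg adjustment at 0.05 over 16387 probe sets. The brightest probe set stood for a gene. With 4 residual and 3.47 prior degrees of freedom the median SE was 0.10, and the small number of arrays limits the precision. The fit was tested on simulated data.

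The genes and lists were chosen with earlier results of these data known. Named genes were the 10 genes, Tnrc6a, the 3 of each list with the lowest unadjusted p and the 3 most correlated with Runx1 and with Kit. Tal1, Lmo2, Cbfb, Ikzf1, Gfi1b, Xist, Afp, Ttr, Mir221 and Mir222 were named after their values had been seen. So were the mast cell genes Cpa3, Mcpt4, Fcer1a and Ms4a2. The same holds for Epor, Tagln, Acta2, Col1a1 and Col1a2. Per the labels, RNA was taken from individual embryos. Deviations of same-numbered arrays correlated at 0.45, 0.15 and −0.11, and those of unlike-numbered arrays at −0.45 to 0.24. The numbers were not taken to pair the arrays in the main fit. Alternatives were quantile normalization, median centring, other filters, a trended robust fit, weighted arrays, the t-test of the study's design (the methods' t-test), a block for replicate number, averaging over probe sets of a gene, and leaving out each array. At most 122 values were identical in any pair of arrays.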

Additional observations from a re-analysis of the deposited data

How the results depend on the processing

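Over 15 alternatives no probe set had an adjusted p under 0.05 (lowest adjusted p 0.108, without the library labelled mutant 1), and none of 147 refits of the 10 genes passed, with adjusted p of 0.592 or more. The direction turned in 6 of these, all with 1 array left out: Lyl1 at 0.11 and 0.040 (range −0.11 to 0.11), Meis1 at −0.16 (to 0.27), Hhex at −0.079 (to 0.52), and Kit at −0.085 and −0.0071 (to 1.02). Probe sets at an unadjusted p under 0.05 numbered 579, 1086 with array weights and 395 to 1372 with 1 array left out; the cause was not tested. The number of genes at that level was 3, against 1 (Mecom) in the methods' t-test and 0 to 3 with 1 array left out. Without labelled mutant 1, Etv6 was in place of Runx1. That number was 2 with array weights, 2 with averaging over probe sets of a gene, and 2 of 7 with the filter at the 50th percentile. The count of genes with non-overlapping groups ran from 3 to 7 with 1 array left out. With the replicate number as a block, 3 genes kept an unadjusted p under 0.05 (limma p 0.0155 for Runx1, 0.0373 for Mecom and 0.0476 for Fli1), 727 probe sets did, and it changed no call. The filter at the 50th percentile left Mecom, Myb and Hhex untested.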
